A study of Homo sapiens with 6 samples.

Results

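The genes described here encode proteins of the spliceosome, the RNA and protein machine that removes introns from nuclear transcripts. They were taken as the rows of the deposited array table whose gene symbol starts with SNRP, SRSF, SF3A, SF3B, PRPF, or LSM followed by a number, with pseudogenes and antisense transcripts left out. This gave 53 genes of 19361 rows. Rows were taken by name only, but this group of genes was chosen with earlier results of these data known. A further 1 row, unnamed in the platform annotation, has a row number that RefSeq lists under a symbol the rule would take. It is not counted among the members, and it did not pass the test described below (−0.06, SE 0.05, adjusted p = 0.354). LSM14A and LSM14B, which share the LSM symbol but act on cytoplasmic mRNA, and LSM10 and LSM11, which belong to the U7 particle of histone transcript processing, came in by name and are kept apart below.

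RNA was measured on 6 Affymetrix U133 Plus 2.0 arrays, 3 in each of 2 groups, all from the established bladder cancer cell line UMUC-14 grown in medium with 10% serum. This line is known to carry an activating FGFR3 mutation. The control cells received the transfection reagent LipofectaminRNAimax without an siRNA. The siFGFR3 cells were transfected for 40 h with siRNA directed at FGFR3, a growth factor receptor with tyrosine kinase activity, and each array stands for a different siRNA (siFGFR3#35, siFGFR3#36 or siFGFR3#3). No group received a control siRNA by the labels, so carrying an siRNA and losing FGFR3 cannot be told apart. The labels leave unsaid whether the reagent-alone arrays stand for separate cultures, so their spread may be only technical. The siFGFR3 arrays received different siRNAs, so their spread holds differences between siRNAs. The p-values that compare the 2 groups rest on both spreads. Values are log2 levels after RMA, which summarises the probes of a gene after background correction and quantile normalization, and a change is the mean of the siFGFR3 arrays minus the mean of the reagent-alone arrays. A gene passed at a Benjamini-Hochberg adjusted p under 0.05 in limma over the 13552 rows tested, two-sided.

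Splicing begins when the U1 particle binds the start of an intron and the U2 particle its branch point. The U4, U5 and U6 particles then join, and the assembled machine is rearranged until it cuts and joins the transcript. Each of the U1, U2, U4 and U5 particles carries a ring of Sm proteins around its RNA, U6 carries a ring of LSM proteins instead, and SR proteins bind exons and bring the particles to splice sites. Splicing factor genes are known to be among those that MYC raises in proliferating cells.

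FGFR3 itself was at 8.70, 8.75 and 8.74 in the reagent-alone arrays and at 7.47, 7.14 and 8.45 with siFGFR3#35, siFGFR3#36 and siFGFR3#3. It fell by 1.04 (SE 0.30, adjusted p = 0.0271 in limma), and its signal was at 41.7%, 33.3% and 82.2% of the mean control level in the same order of siRNAs. That call was lost without any 1 of the controls or without siFGFR3#35 (adjusted p = 0.0705 to 0.0814). MYC fell by 0.46 (SE 0.06, adjusted p = 0.00202), with −0.53, −0.41 and −0.44 for the siRNAs in that order. The line had epithelial and urothelial transcripts such as KRT19, KRT7, UPK1B and FOXA1 (12.91, 12.30, 11.78 and 11.15 in controls). UPK2, UPK3A and UPK1A were low (4.78, 4.28 and 3.46). The leukocyte marker PTPRC, the fibroblast markers LUM and PDGFRA and the endothelial marker KDR lay between 1.90 and 2.51 in controls. That is under the level of 3.89 below which rows were left out as dim. Other markers were brighter: 4 of 8 leukocyte, 3 of 8 fibroblast and 2 of 7 endothelial rows were tested. Their control means ran from 4.04 (VWF) to 5.94 (ESAM), with CD68 at 5.39 and COL1A1 at 5.42. COL1A1 rose by 0.64 (adjusted p = 0.00391 in limma), while CD3D and THY1 fell. Of 15 interferon genes 7 rose and 0 fell, and the mean level of the list was 6.90 to 7.04 in controls against 7.60 to 10.52 with the siRNAs, highest with siFGFR3#36. Of 8 proliferation genes 6 fell and 0 rose, from a mean level of 10.20 to 10.24 down to 9.46 to 9.80. The part of these changes in the results below was not tested.

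Most spliceosome genes were lower in siFGFR3 cells, by small amounts. Of the 52 members tested, 30 fell, 1 rose and 21 did not pass. Among all rows tested 24.6% fell and 20.6% rose, against 57.7% and 1.92% of the members. The median change of the members was −0.21, beside −0.04 over all rows tested. In bulk RNA, fewer cells of a kind and less of a transcript per cell cannot be told apart. Their changes ran from −0.77 in LSM5 to 0.55 in PRPF40B, and only 2 members, LSM5 and PRPF38B, fell by at least 1.5-fold. That is 3.85% of the members, where 5.32% of all rows fell that far, and 0 members rose at least 1.5-fold, against 7.59% of all rows. The members thus moved down in larger numbers than rows in general but were not more often among the large changes. SRSF12 was too dim to be tested, at 3.07 to 3.42 in controls and 3.11 to 3.38 in siFGFR3 arrays.

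**Figure D1:**
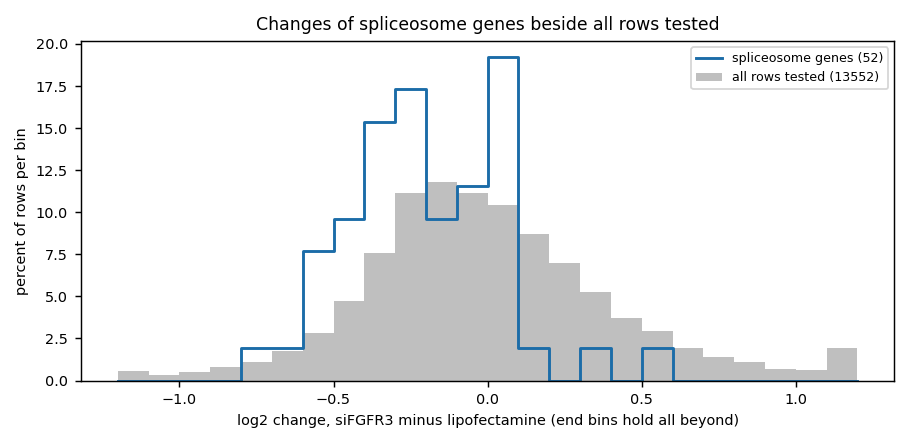
Share of rows by log2 change (siFGFR3 minus lipofectamine) in bins of 0.1, for all rows tested (grey bars, 13552) and for the spliceosome genes tested (blue line, 52). The spliceosome genes lie mostly between −0.8 and 0.1, with 1 gene above 0.5, while all rows spread further to both sides.

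The median SD of a member was 0.030 among the reagent-alone arrays and 0.083 among the siFGFR3 arrays (n = 3 each), beside 0.054 and 0.129 over all rows tested. The latter SD in each pair is a spread between 3 different siRNAs and not between replicates of 1 treatment. All 3 siFGFR3 arrays lay below all 3 controls for 35 members and above them for 4, which is 67.3% and 7.69% of the members, beside 33.9% and 26.9% of all rows tested. Together the groups did not overlap for 39 members (75%), beside 60.8% of all rows. With the dimmest 50% of rows left out, 60% of the 50 members tested fell, against 25.8% of all rows, of which 24.9% rose. The count of falls was smaller with any 1 control left out. Without lipofectamine replicate 1, 2 or 3 it was 16, 16 and 19 members, or 30.8%, 30.8% and 36.5%, and the share of all rows that fell was 14.6%, 14.7% and 14.7% in the same fits. Of the 30 members that fell, 16 passed without each array in turn. The others, each lost without at least 1 control, were SNRPA, SNRPB, SNRPB2, SNRPC, SNRPD2, SF3A3, LSM6, LSM7, PRPF18, SRSF2, SRSF3, SRSF4, SRSF8 and SRSF10. With each array centred on its median 32 members fell and 1 rose, while over all rows 4285 fell and 2312 rose in place of 3329 and 2789. At an adjusted p under 0.01, 15 members fell and 1 rose, or 28.8% and 1.92%, against 12% and 10.7% of all rows.

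**Figure D2:**
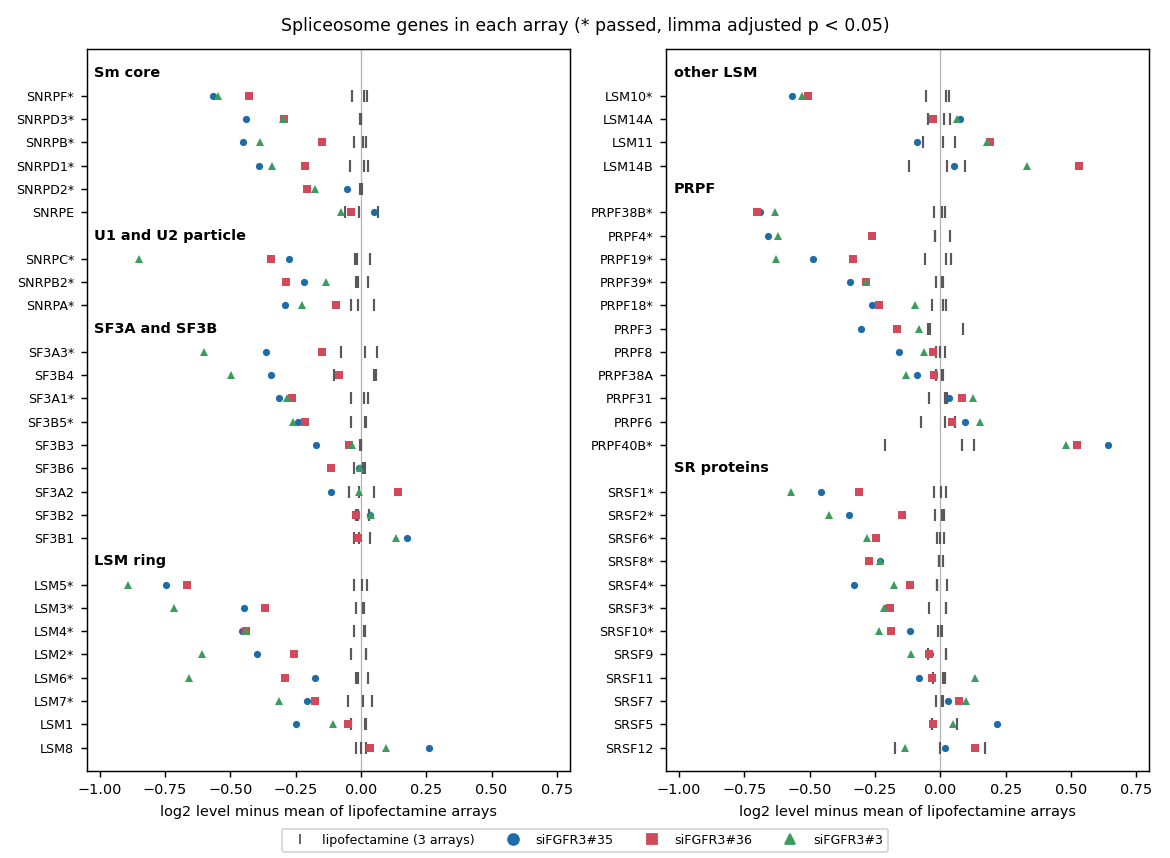
Log2 level of each of the 53 spliceosome genes in each array, minus the mean of its 3 reagent-alone arrays, by class. Grey ticks are the reagent-alone arrays, coloured symbols the siRNA arrays (1 array each), and an asterisk marks genes that passed. For most genes of the Sm core, the LSM ring and the SR proteins the coloured symbols lie left of all grey ticks, and for PRPF40B they lie right of them.

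The Sm proteins form the ring that is loaded on the U1, U2, U4 and U5 RNAs in the cytoplasm. Of the 6 tested, 5 fell, 0 rose and SNRPE did not pass. The falls were 83.3% of the class, beside 24.6% of all rows tested, of which 20.6% rose. SNRPF, a ring subunit, was at 11.74, 11.75 and 11.70 in the reagent-alone arrays and at 11.17, 11.30 and 11.18 with siFGFR3#35, siFGFR3#36 and siFGFR3#3. Its siFGFR3 arrays were all below the controls and close to each other, and it fell by 0.52 (SE 0.05, adjusted p = 0.000785). SNRPD3, another ring subunit, was at 11.99 in each control and at 11.55, 11.70 and 11.69 with the siRNAs, a fall of 0.34 (SE 0.05, adjusted p = 0.00246). SNRPB, whose product is the classic autoantigen of the ring, was at 12.35, 12.34 and 12.30 in controls and at 11.88, 12.18 and 11.94 with the siRNAs. It fell by 0.33 (SE 0.08, adjusted p = 0.0139), least with siFGFR3#36, and did not pass without lipofectamine replicate 1 or 2 (adjusted p = 0.0544 and 0.0514). SNRPD1 and SNRPD2 fell by 0.32 and 0.14, the latter just inside the threshold (adjusted p = 0.0495). SNRPE was at 4.96 to 5.09 in controls and 4.95 to 5.07 with the siRNAs, so the groups overlapped. Its row was far dimmer than the other Sm rows, whose control means ran from 9.34 (SNRPD1) to 12.33 (SNRPB). Whether it detects the transcript well was not tested. SNRPG and SNRPN were not among the members. Without lipofectamine replicate 1 or 2, 3 Sm genes fell in place of 5, where 14.6% and 14.7% of all rows did.

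Of the 3 tested proteins particular to the U1 and U2 particles, all fell, where 24.6% of all rows tested did. SNRPC, the U1-C protein that steadies the pairing of U1 with the start of the intron, was at 10.21, 10.26 and 10.20 in controls and at 9.95, 9.88 and 9.37 with the siRNAs. It fell by 0.49 (SE 0.14, adjusted p = 0.0295), and the siFGFR3#3 array lay well below the other siFGFR3 arrays. SNRPB2, the U2-B'' protein of the U2 particle, was at 11.45, 11.49 and 11.44 in controls and at 11.24, 11.17 and 11.32 with the siRNAs. Every siFGFR3 array was below every control, and the fall was 0.21 (SE 0.05, adjusted p = 0.0148). SNRPA, the U1-A protein that binds a loop of U1 RNA, was at 9.76, 9.82 and 9.73 in controls and at 9.48, 9.68 and 9.55 with the siRNAs. Its fall of 0.20 (SE 0.07, adjusted p = 0.0417) was near the threshold, and without any 1 of the controls none of these 3 genes passed in limma (adjusted p = 0.0512 to 0.147). SNRPA also did not pass without siFGFR3#35 or siFGFR3#3 (adjusted p = 0.0774 and 0.0875) or without the trend of variance on level (0.0566).

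The SF3A and SF3B complexes are parts of the U2 particle that hold the branch point. Here the picture was mixed: 3 of the 9 genes fell, 0 rose and 6 did not pass, and the share of falls was 33.3% beside the 24.6% of all rows. SF3A3, a subunit of SF3A, was at 8.18, 8.27 and 8.32 in controls and at 7.89, 8.10 and 7.65 with the siRNAs. It fell by 0.37 (SE 0.12, adjusted p = 0.0354), with a wide spread between siRNAs, and did not pass without any 1 control, siFGFR3#35 or siFGFR3#3 (adjusted p = 0.0632 to 0.118). SF3A1, the largest SF3A subunit, was at 8.40, 8.46 and 8.44 in controls and at 8.12, 8.17 and 8.15 with the siRNAs, and fell by 0.29 (SE 0.06, adjusted p = 0.00662). SF3B5, a small SF3B subunit, was at 10.69, 10.69 and 10.63 in controls and at 10.43, 10.45 and 10.41 with the siRNAs. It fell by 0.24 (SE 0.05, adjusted p = 0.00631), with no overlap between groups and little spread within them. The members that did not pass include SF3B1, which grips the branch point and is often mutated in blood cancers. It was at 9.79, 9.85 and 9.81 in controls and at 9.99, 9.80 and 9.95 with the siRNAs (0.10, SE 0.06, adjusted p = 0.236). SF3B2, SF3B3, SF3B6 and SF3A2 had values between −0.08 and 0.02, and SF3B4 was at −0.31 (adjusted p = 0.06).

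The LSM proteins 2 to 8 ring the end of U6 RNA, and LSM1 takes the place of LSM8 in a cytoplasmic ring that promotes mRNA decay. Among these 8, 6 fell (75%), 0 rose and 2 did not pass, beside 24.6% lower and 20.6% higher among all rows tested. LSM5 had the largest fall of all members. It was at 8.43, 8.40 and 8.37 in controls and at 7.65, 7.73 and 7.51 with the siRNAs, and fell by 0.77 (SE 0.07, adjusted p = 0.000724). On the linear scale its signal fell by 41.3%, or 1.70-fold. LSM3 was at 11.23, 11.24 and 11.21 in controls and at 10.77, 10.86 and 10.51 with the siRNAs, a fall of 0.51 (SE 0.09, adjusted p = 0.0045). LSM4 was at 10.48, 10.48 and 10.44 in controls and at 10.01, 10.03 and 10.03 with the siRNAs. It fell by 0.44 (SE 0.04, adjusted p = 0.000826), and the siRNAs gave nearly the same level. LSM2, LSM6 and LSM7 fell by 0.42, 0.37 and 0.23. The subunits that tell the rings apart did not pass: LSM1 was at −0.14 (adjusted p = 0.124) and LSM8 at 0.13 (adjusted p = 0.207). The siFGFR3 arrays lay all below the controls for LSM1 and all above them for LSM8. Without siFGFR3#36, LSM1 passed (adjusted p = 0.0354 in limma). The LSM8 row was dimmer, at 5.60 in controls, than the other ring rows, whose control means ran from 8.40 (LSM5) to 11.22 (LSM3). Whether it detects the transcript well was not tested.

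LSM10, a subunit of the U7 particle, fell by 0.53 (SE 0.06, adjusted p = 0.0011). It was at 8.12, 8.12 and 8.04 in controls and at 7.53, 7.59 and 7.56 with the siRNAs, with no overlap. Its partner in that particle, LSM11, did not pass (0.09, adjusted p = 0.442), nor did LSM14A (0.04, adjusted p = 0.61) and LSM14B (0.30, adjusted p = 0.088). The LSM14B arrays overlapped between groups, at 6.76 to 6.97 in controls and 6.93 to 7.41 with the siRNAs.

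The PRPF genes are named after yeast splicing mutants and act at several stages. Of 11 tested, 5 fell, 1 rose and 5 did not pass. That is 45.5% lower and 9.09% higher, beside 24.6% and 20.6% of all rows tested. PRPF38B, related to a protein of the complex that forms before activation, was at 8.05, 8.02 and 8.06 in controls and at 7.35, 7.34 and 7.41 with the siRNAs. Its fall of 0.67 (SE 0.06, adjusted p = 0.000577) was the most significant among the members. PRPF4, a protein of the U4 and U6 particle, was at 9.23, 9.29 and 9.23 in controls and at 8.59, 8.99 and 8.63 with the siRNAs. It fell by 0.51 (SE 0.11, adjusted p = 0.0091), less with siFGFR3#36 than with the others. PRPF19, a ubiquitin ligase and the core of the complex that accompanies the catalytic steps, fell by 0.48 (SE 0.08, adjusted p = 0.00434). PRPF39, which is linked to U1, and PRPF18, which acts in the second step of splicing, fell by 0.30 and 0.20, the latter close to the threshold (adjusted p = 0.0484).

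PRPF40B, related to a yeast U1 protein, was the one member that rose. It was at 5.99, 5.65 and 5.94 in controls and at 6.50, 6.38 and 6.34 with the siRNAs, a rise of 0.55 (SE 0.11, adjusted p = 0.00658) with no overlap. Several large proteins of the U4, U5 and U6 assembly did not pass. PRPF8, which forms the heart of the catalytic site, was at −0.08 (SE 0.06), PRPF6, a bridge between particles, at 0.10 (SE 0.06), and PRPF31, a U4 particle protein mutated in inherited retinal degeneration, at 0.08 (SE 0.06). PRPF3 and PRPF38A were at −0.18 and −0.08.

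Of the 11 tested SR proteins, 7 fell, 0 rose and 4 did not pass. The falls were 63.6% of the class, beside 24.6% of all rows tested, of which 20.6% rose. SRSF1, a founding member that acts in splice site choice, was at 10.62, 10.64 and 10.66 in controls and at 10.18, 10.33 and 10.07 with the siRNAs. It fell by 0.45 (SE 0.07, adjusted p = 0.0034), the largest fall of the class, and its signal fell by 26.6%. SRSF2, often mutated in myeloid neoplasms, was at 11.10, 11.11 and 11.08 in controls and at 10.75, 10.95 and 10.67 with the siRNAs. It fell by 0.31 (SE 0.07, adjusted p = 0.0156), least with siFGFR3#36, and did not pass without any 1 control (adjusted p = 0.0525 to 0.0593). SRSF6 was at 10.00, 9.97 and 9.98 in controls and at 9.74, 9.74 and 9.70 with the siRNAs, a fall of 0.26 (SE 0.05, adjusted p = 0.00517) that was nearly the same for each siRNA. SRSF8, SRSF4, SRSF3 and SRSF10 fell by 0.25, 0.21, 0.21 and 0.18. SRSF9, SRSF11, SRSF7 and SRSF5 had values between −0.07 and 0.08 and did not pass. SRSF3 and SRSF7, which both serve as adaptors for mRNA export, thus stood at −0.21 and 0.07. Without lipofectamine replicate 1, 2 or 3, 2, 2 and 3 of the 11 SR genes fell in place of 7. Of all rows, 14.6%, 14.7% and 14.7% fell in the same fits. Whether the probes of a row tell close copies apart, such as SRSF2 and SRSF8, was not tested.

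The counts of 0 rises above need their background. At an unadjusted p under 0.05 in limma, 2 of the 52 members were higher (PRPF40B and LSM14B) and 31 were lower. Over the 13552 rows tested, 3332 were higher and 4055 lower at that threshold. The model with 4 levels called 3 members higher at an adjusted p under 0.05, beside 4407 of all rows (32.5%).

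Other genes of splicing, in lists drawn up by function but with earlier results of these data known, were set beside the members. Of 127 tested, 54 fell, 5 rose and 68 did not pass, and the median change was −0.16. The share that fell was 42.5%, between that of all rows tested (24.6%) and that of the members (57.7%). Among 15 genes of snRNP assembly, which load the Sm ring and carry the particle to the nucleus, 10 fell and 0 rose (0 also at an unadjusted p under 0.05). GEMIN5, which recognises the RNA to be loaded, fell by 0.74 (SE 0.06, adjusted p = 0.000522), and GEMIN4 fell by 0.67 (SE 0.06, adjusted p = 0.000587). The falls made up 66.7% of the assembly genes, beside 24.6% of all rows tested. Other proteins of the particles fell in 10 of 21 cases (47.6%) and rose in 0 (1, SNRNP35, was higher at an unadjusted p under 0.05). Within them PPIH, a prolyl isomerase of the U4 and U6 particle, fell by 0.97 (SE 0.06, adjusted p = 0.000265) and SNU13, which binds U4 RNA, fell by 0.55 (SE 0.07, adjusted p = 0.00144).

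Of 11 factors of the branch point and the end of the intron, 7 fell and 0 rose, led by U2SURP (−0.48, adjusted p = 0.00114) and CHERP (−0.54, adjusted p = 0.00208), both associated with the U2 particle. With all arrays the falls were 63.6% of the list, beside 24.6% of all rows tested. Without lipofectamine replicate 1, 2 or 3, 3, 3 and 4 of these 11 fell, where 14.6%, 14.7% and 14.7% of all rows did. Of 23 genes of the PRP19 complex and the catalytic steps, 8 fell and 0 rose, among them PPIL1 (−0.53, adjusted p = 0.00216) and ISY1 (−0.31, adjusted p = 0.00651). That is 34.8%, beside 24.6% of all rows tested. Without any 1 control 4 of the 23 fell, where 14.6% to 14.7% of all rows did. Of 23 hnRNP and PTB genes, which bind transcripts and often oppose SR proteins, 10 fell and 0 rose, with SYNCRIP at −0.46 (adjusted p = 0.000991) and HNRNPD at −0.43 (adjusted p = 0.00112). That is 43.5%, beside 24.6% of all rows tested. Without lipofectamine replicate 1 or 2, 6 of the 23 fell, where 14.6% and 14.7% of all rows did. At an unadjusted p under 0.05 in limma, 1 gene of these 3 lists was higher, SLU7 of the catalytic steps. Of 10 genes of the exon junction complex and of nonsense-mediated decay, 3 fell and 0 rose (0 also unadjusted). The share of falls, 30%, was near the 24.6% of all rows tested. Those that fell were the core subunits MAGOHB (−0.59, adjusted p = 0.00412), MAGOH (−0.44, adjusted p = 0.0125) and EIF4A3 (−0.20, adjusted p = 0.038), of which EIF4A3 did not pass without any 1 control (adjusted p = 0.0895 to 0.125), without siFGFR3#3 (0.0766) or without the variance trend (0.0595). The other core genes RBM8A (−0.08, adjusted p = 0.457) and CASC3 (−0.08, adjusted p = 0.459) did not pass, and their groups overlapped. Without lipofectamine replicate 1, 1 gene of this list fell, where 14.6% of all rows did. MAGOH and MAGOHB are near copies, and whether their rows are distinct was not tested.

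Kinases of SR proteins and tissue-type regulators, like all rows tested, held both falls and rises. Of 14 SR-related genes and SR kinases, 5 fell, led by PNN (−0.53, adjusted p = 0.00249) and RNPS1 (−0.35, adjusted p = 0.0046), and 2 rose. That is 35.7% and 14.3%, not far from the 24.6% and 20.6% of all rows tested, and the median change was −0.03. The kinase CLK2 rose by 0.32 (SE 0.07, adjusted p = 0.00854) and the kinase SRPK2 by 0.20 (SE 0.06, adjusted p = 0.0287), while the kinase SRPK1 fell by 0.43 (SE 0.09, adjusted p = 0.00968). SRPK2 did not pass with arrays centred on their median (adjusted p = 0.11) or without any 1 control (0.0853 to 0.116). Without any 1 control 3 of this list fell, where 14.6% to 14.7% of all rows did. Of 10 regulators of cell-type splicing 3 rose and 1 fell, against 20.6% and 24.6% of all rows. ESRP2, a regulator of epithelial exons, was at 8.97, 8.97 and 8.94 in controls and at 9.65, 9.47 and 9.78 with the siRNAs, and rose by 0.67 (SE 0.08, adjusted p = 0.00143). RBFOX2 rose by 0.55 (SE 0.11, adjusted p = 0.0084) and QKI by 0.32 (SE 0.09, adjusted p = 0.0288), and MBNL1 fell by 0.34 (SE 0.11, adjusted p = 0.0452). QKI and MBNL1 did not pass without any 1 control (adjusted p = 0.0792 to 0.139) or without siFGFR3#3 (0.074 and 0.0547). MBNL1 also did not pass without siFGFR3#35 (adjusted p = 0.06), nor QKI with arrays centred on their median (0.082). ESRP1, the paralog of ESRP2, was at −0.03 and did not pass.

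**Figure D3:**
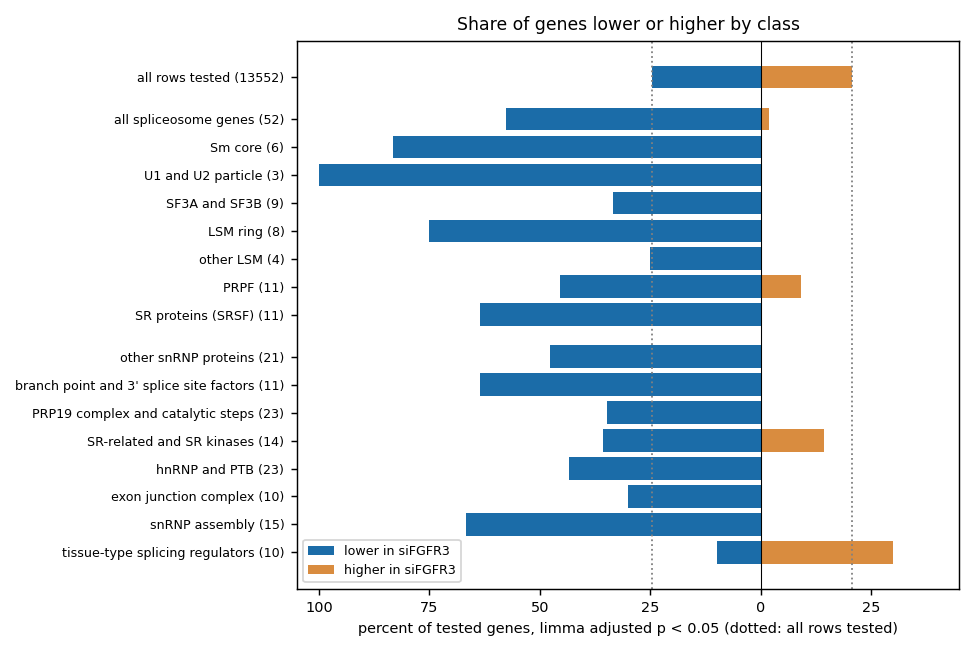
Percent of tested genes that were lower (blue, left) or higher (orange, right) in siFGFR3 cells at a limma adjusted p under 0.05, for all rows tested, the spliceosome genes and their classes, and the other splicing lists, with the number tested in parentheses. Dotted lines mark all rows tested (24.6% and 20.6%). The Sm core (5 of 6), the LSM ring (6 of 8) and snRNP assembly (10 of 15) extend far left of the dotted line, and the tissue-type regulators extend right.

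The siRNAs differed in how much FGFR3 they left, so the members were also followed by siRNA. Each siRNA has 1 array, which the model with 4 levels assumes to vary like the controls, so its p-values compare arrays and not conditions. The 3 contrasts against the controls share those controls. With siFGFR3#35, 33 of the 52 members were lower and 4 higher (all rows 30.3% and 30.4%), with siFGFR3#36 29 and 2 (26.8% and 22.7%), and with siFGFR3#3 32 and 4 (30.3% and 29.9%). The median change of the members was −0.24, −0.16 and −0.22 in that order. The differences between these counts were not tested.

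Set directly against the mean of the other siRNAs, siFGFR3#3 had 10 members lower and 0 higher, beside 8.54% and 9.88% of all rows (3 members were higher at an unadjusted p under 0.05 in limma). SNRPC was 0.54 lower with it, at −0.85 from the control mean against −0.27 and −0.34 with siFGFR3#35 and siFGFR3#36 (difference −0.54, SE 0.05, adjusted p = 5.4e-05). LSM6 differed by −0.42 (SE 0.04, adjusted p = 0.000184) and LSM3 by −0.31 (SE 0.04, adjusted p = 0.000823). The siFGFR3#36 array went the other way: 16 members were higher with it than the mean of the other siRNAs and 2 lower, beside 14.5% and 17.7% of all rows. SNRPC counted among the 16, although it was lower with siFGFR3#36 (−0.34) than with siFGFR3#35 (−0.27). PRPF4 was higher by 0.38 (SE 0.05, adjusted p = 0.00041), SNRPB by 0.27 (SE 0.04, adjusted p = 0.000937) and SRSF2 by 0.24 (SE 0.04, adjusted p = 0.00177). For these 3 genes this means a smaller fall from the controls with siFGFR3#36 (−0.26, −0.15 and −0.15) than with the other siRNAs. SF3B1 and SRSF5 were the members lower with it, at −0.01 and −0.03 from the control mean. The contrasts of the siRNAs with each other are not independent, since the same arrays enter both. Without the trend of variance on level, 5 members were higher with siFGFR3#36 and 3 lower with siFGFR3#3.

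**Figure D4:**
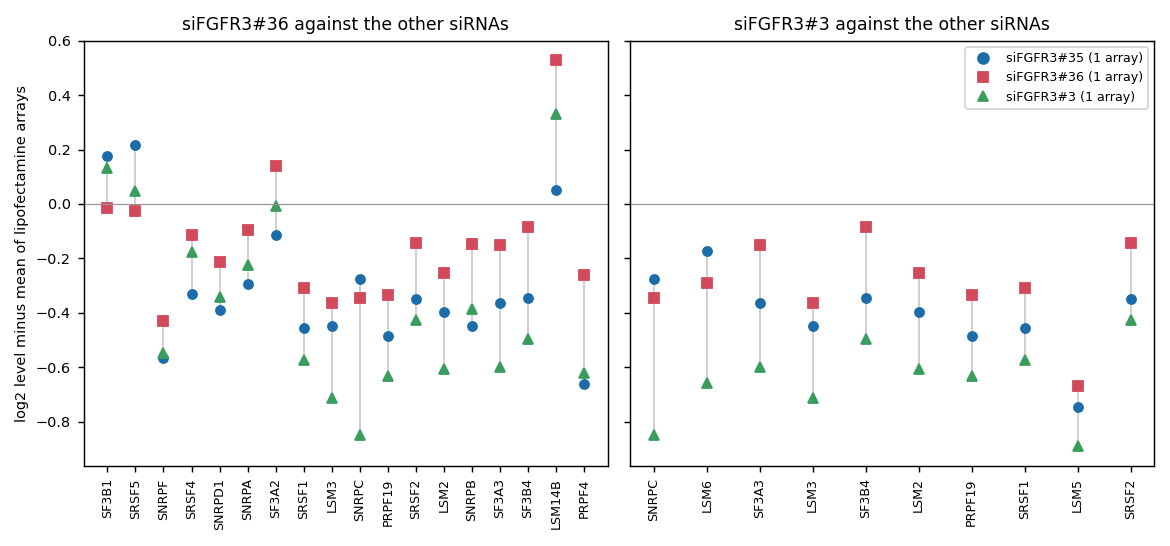
Log2 level minus the mean of the reagent-alone arrays, by siRNA (1 array each), for members that passed in the contrast of siFGFR3#36 against the other siRNAs (left, 18 genes) and of siFGFR3#3 against the others (right, 10 genes). The vertical axis is shared. All 10 genes on the right are lowest with siFGFR3#3, and for 16 of the 18 on the left the siFGFR3#36 value exceeds the mean of the other siRNAs.

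Promoter sequences of the members were read for 2 words tied to the pathway. FGFR signalling through MAP kinase acts on ETS factors, which bind sites around GGAA, and MYC binds the E-box CACGTG. The words searched were CCGGAAG with its reverse complement CTTCCGG, and CACGTG, which is its own reverse complement, in the 300 bases from 250 before to 50 after the first listed start in RefSeq (GRCh38.p14). Of the 53 members 45 had a promoter in the table. The ETS word was present in 17 of them (37.8%), against 14.2% of 15843 promoters of protein-coding genes and 10.7% of all 27305. It was present in 9 of the 26 members with a promoter that fell (34.6%) and in 8 of the 17 that did not pass (47.1%). The E-box was present in 1 of the 45 (2.22%), SF3B1, against 8.88% of protein-coding promoters. A match in sequence is a description and no evidence of binding, and a missing word says only that these letters are not in this window.

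Shown here are the promoters of 4 members chosen after their values were seen: LSM5, the largest fall; SNRPC, the fall that differed most between siRNAs; SF3B6, which has the most ETS words and did not pass; and PRPF40B, the rise. Each is written 5′ to 3′ along the strand of its gene, in lower case with the ETS words in capitals. They lie at chr7:32490331-32490630 (minus strand), chr6:34757255-34757554 (plus strand), chr2:24076277-24076576 (minus strand) and chr12:49623311-49623610 (plus strand).
LSM5: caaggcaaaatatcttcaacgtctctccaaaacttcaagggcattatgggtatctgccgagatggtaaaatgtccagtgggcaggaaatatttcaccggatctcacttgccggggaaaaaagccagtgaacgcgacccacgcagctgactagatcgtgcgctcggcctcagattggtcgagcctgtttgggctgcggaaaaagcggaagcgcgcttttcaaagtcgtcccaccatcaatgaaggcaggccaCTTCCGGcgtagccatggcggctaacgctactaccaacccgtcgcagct
SNRPC: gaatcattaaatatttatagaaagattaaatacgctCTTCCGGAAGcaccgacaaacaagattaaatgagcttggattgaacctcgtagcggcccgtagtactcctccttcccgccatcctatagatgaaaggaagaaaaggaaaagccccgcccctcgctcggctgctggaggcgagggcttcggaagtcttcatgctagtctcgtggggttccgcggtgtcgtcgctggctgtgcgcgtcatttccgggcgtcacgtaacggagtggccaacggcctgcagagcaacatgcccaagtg
SF3B6: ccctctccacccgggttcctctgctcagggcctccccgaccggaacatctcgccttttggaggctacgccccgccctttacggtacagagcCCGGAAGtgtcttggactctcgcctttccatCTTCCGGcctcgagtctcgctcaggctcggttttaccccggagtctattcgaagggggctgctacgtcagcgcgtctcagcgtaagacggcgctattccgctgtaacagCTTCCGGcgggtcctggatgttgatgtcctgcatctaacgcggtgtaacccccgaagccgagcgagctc
PRPF40B: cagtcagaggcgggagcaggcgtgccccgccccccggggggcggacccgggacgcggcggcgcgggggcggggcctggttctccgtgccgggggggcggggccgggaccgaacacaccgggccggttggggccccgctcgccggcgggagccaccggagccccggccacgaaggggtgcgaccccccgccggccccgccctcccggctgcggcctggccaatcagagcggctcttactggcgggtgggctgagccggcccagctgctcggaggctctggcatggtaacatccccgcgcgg
In SNRPC the 2 words overlap in 1 stretch that reads the same on both strands. In SF3B6 they start 3 times, at −159, −128 and −19 from the start of the gene. PRPF40B has neither word. SF3B6 was at −0.04 (SE 0.05, adjusted p = 0.523 in limma). These 4 genes were chosen by their changes or their words, so they cannot show whether words and changes go together.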

How the data were processed

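The deposited values are log2 expression levels that the authors computed by RMA with affy; the tools are named, without versions, per the submitters' processing notes, and the array definition and genome build are not given in the sources used here. Rows are named by Entrez gene ID, so 1 row stands for a gene. Of 19361 rows, 18669 had 1 symbol in the platform annotation, updated through RefSeq (GRCh38.p14), and 692 stayed unnamed. The 5809 dimmest rows (30% by mean over the 6 arrays) were left out and 13552 tested with limma 3.58.1 in R 4.3.3 (lmFit, eBayes with a variance trend; Benjamini-Hochberg over all rows), a fit tested on simulated data. An exact permutation test of 3 against 3 cannot give a p below 0.1. A second model had 4 levels, the controls and each siRNA. Array data have no count of reads, so the number of arrays limits the precision. The 100 ng of total RNA per array were amplified, per the labels' protocols.

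The members and lists were chosen with earlier results of these data known. In each class the 3 largest changes among genes that passed without overlap were named with values by array, and in each other list the 2 smallest adjusted p and any gene against the list's main direction. Other genes, such as ESRP1 and the markers, were named after their values were seen. The array titles end in numbers whose meaning is not stated. They are 1, 2 and 3 for the controls and 2, 1 and 1 for siFGFR3#35, siFGFR3#36 and siFGFR3#3. Deviations of same-numbered arrays correlated at 0.01, −0.02 and 0.03. Each siFGFR3 array is a different siRNA, so these values cannot tell whether the arrays were paired.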

Additional observations from a re-analysis of the deposited data

How the results depend on the processing

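Of the 30 members that fell, 16 passed without each array in turn and 9 kept an adjusted p under 0.05 under every alternative fit (filters, centring, variance settings, weights, 4-level model, block and left-out arrays), namely LSM3, LSM4, LSM5, LSM10, PRPF19, PRPF38B, SNRPD3, SNRPF and SRSF1. The median change of the members ran from −0.27 (arrays centred on their median) to −0.20 (without lipofectamine replicate 2). The causes of the differences below were not tested. A left-out array or a block also leaves fewer arrays or degrees of freedom, and the part of this was not tested. No depth exists for arrays.

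With a replicate block on the number that ends the titles, which leaves few degrees of freedom, 1435 rows fell and 1348 rose. In that fit 9 members fell, among them 3 of the LSM ring, 2 PRPF, 0 SF3A and SF3B, 2 Sm core, 1 SR protein and 0 U1 and U2 genes. The falls were 17.3% of the members tested and 10.6% of all rows, in place of 57.7% and 24.6%. In the other lists 4 branch point factors, 1 PRP19 gene, 2 SR-related genes, 4 hnRNP genes, 1 exon junction gene and 0 tissue-type regulators fell, and 0 SR-related genes and 1 tissue-type regulator rose. With the 4-level model 4407 rows, 3 members, 1 other LSM, 1 SF3A or SF3B gene, 2 other snRNP genes, 3 PRP19 genes, 5 SR-related genes, 1 hnRNP gene and 1 assembly gene rose, and 16 hnRNP genes and 2 tissue-type regulators fell. Array weights gave 1 PRP19 gene and 4 SR-related genes higher. With the dimmest 50% left out 1 other snRNP gene rose, and without a filter 0 tissue-type regulators fell. With a change of at least 1.5-fold also required, 2 members fell (LSM5 and PRPF38B) and 0 rose, and at an adjusted p under 0.01 15 fell.

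With arrays centred on their median 1 SR-related gene rose, and LSM14A (−0.0288), SF3A2 (−0.0593), SF3B2 (−0.0473) and SRSF11 (−0.0594), which pass in neither fit, changed sign. In the siRNA contrasts, centring gave 1 member higher with siFGFR3#35, 2 higher with siFGFR3#3 and 0 lower with siFGFR3#36 than with the others. Without the variance trend 2 members were higher with siFGFR3#3 than in controls, 0 lower and 5 higher with siFGFR3#36 than with the others, and 3 lower with siFGFR3#3 than with the others. Without a filter 1 was lower with siFGFR3#36 than with the others.

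Leaving out 1 array at a time gave these ranges. Rows that fell ran from 1985 to 3672 and rows that rose from 1672 to 3591. Members that fell ran from 16 to 30 and those that rose from 1 to 2. Falls ran from 3 to 5 in the Sm core, 2 to 7 in SR proteins and 0 to 3 in U1 and U2 genes. In the other lists they ran from 3 to 8 for branch point factors, 4 to 9 for PRP19 genes, 3 to 5 for SR-related genes, 6 to 14 for hnRNP genes, 1 to 4 for exon junction genes and 0 to 1 for tissue-type regulators. Rises ran from 0 to 1 for other LSM, SF3A and SF3B, other snRNP, hnRNP and assembly genes, 0 to 2 for PRP19 genes and 1 to 4 for SR-related genes. The change of SF3A2 ran from −0.0604 to 0.0664, of SNRPE from −0.0554 to 0.0131 and of SRSF11 from −0.0566 to 0.0506. Leaving out 1 control, members higher with siFGFR3#3 than in controls ran from 2 to 5, members lower with siFGFR3#36 than with the others from 1 to 4, and members higher with siFGFR3#3 than with the others from 0 to 1.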
